A study of Mus musculus with 7 samples.

Results

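The core genes of the Polycomb complexes were followed in ovulated mouse oocytes with and without Nlrp2, a maternal effect gene whose protein is stored in the egg. The 10 genes came from a fixed list of Polycomb repressive complex 1 and 2 (PRC1 and PRC2) subunits: Ezh1, Ezh2, Eed, Suz12, Jarid2, Ring1, Rnf2, Pcgf1, Pcgf6 and Bmi1. All 10 were among the 18951 gene symbols of the deposited table. The study compared 3 pools from wild-type (WT) females with 4 pools from Nlrp2-null females, all on the C57BL/6 strain and 4 weeks old. Each RNA sample held about 150 oocytes from 3 to 4 mice of one genotype. The oocytes were collected as cumulus-oocyte complexes from the oviduct and stripped of their surrounding cells with hyaluronidase, so a pool is a mixture of animals and may retain some somatic cells. The labels do not say how the null allele was made. The labels do not say that no animal gave oocytes to more than 1 pool, so p-values measure the spread between these pools.

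Polycomb complexes silence genes by marking histones. PRC2 places methyl groups on histone H3 at lysine K27 (H3K27), and PRC1 attaches ubiquitin to histone H2A; each mark helps to recruit the complex that writes the other. In the growing oocyte PRC2 lays down trimethylation of H3K27 that is passed to the embryo and silences the maternal copy of a set of imprinted genes without DNA methylation, while PRC1 keeps developmental genes silent and is needed for the egg to support the embryo.

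The reads counted in genes came to 71073973 to 96330083 per pool, and between 15958 and 16886 genes had a value above 0. Nlrp2 stood at 15527, 20130 and 16792 normalized counts (reads divided by a size factor per pool) in the WT pools and at 107, 8.19, 1.96 and 63.8 in the null pools, which fits the labels. All 14 oocyte markers examined were present, with a summed level of 1015091 to 1204294 normalized counts per pool. Markers of cumulus and granulosa cells, 28 of 29 in the table, summed to 48633 to 72134 in WT and 58677 to 82273 in null pools, and 21 of 26 tested had positive fold changes. Markers of oviduct epithelium, 8 of 8 in the table, summed to 20745 to 30566 in WT and 29233 to 36534 in null pools. Their median WT level was only 57, so a few genes carry the sum. The mean log2 level of the 7 tested was 8.22 in null 4 and 5.96 to 6.55 in the other pools. Blood markers, 4 of 8 in the table, summed to 281 to 597 in WT and 197 to 2584 in null pools. No marker in the table was at 0 in every pool. In such pooled RNA, fewer cells of a type and less RNA per cell cannot be told apart.

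Levels of different genes were compared per kilobase (kb) of annotated exon. In WT pools the order ran Pcgf1, Suz12, Bmi1, Ezh2, Eed, Pcgf6, Rnf2, Jarid2, Ezh1 and Ring1. The first had 16105 ± 788 (SD, n = 3) normalized counts per kb and the last 15.8 ± 20.4 (SD, n = 3). Per kb, 9 of the 10 genes lay above at least 79.5% of the 14957 tested genes with a known length, and Pcgf1, Suz12, Bmi1 and Ezh2 lay above 98.2% or more. Ring1 lay above only 19.7%. The ranges over WT pools overlapped for Suz12 and Bmi1, for Bmi1 and Ezh2, and for Pcgf6 and Rnf2. Compared within each pool, Bmi1 was above Ezh2 in 3 of 3 WT and 4 of 4 null pools. Suz12 was above Bmi1 in only 2 of 3 WT and 1 of 4 null pools, and Pcgf6 was above Rnf2 in 2 of 3 and 3 of 4. Eed was above Pcgf6 in 3 of 3 WT but only 2 of 4 null pools. The order of those pairs was thus not the same in every pool. Dividing by the longest coding transcript in place of all exons moved Ezh2 to the second place and Pcgf6 ahead of Eed, and left Pcgf1 first and Rnf2, Jarid2, Ezh1 and Ring1 last in that order.

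**Figure D1:**
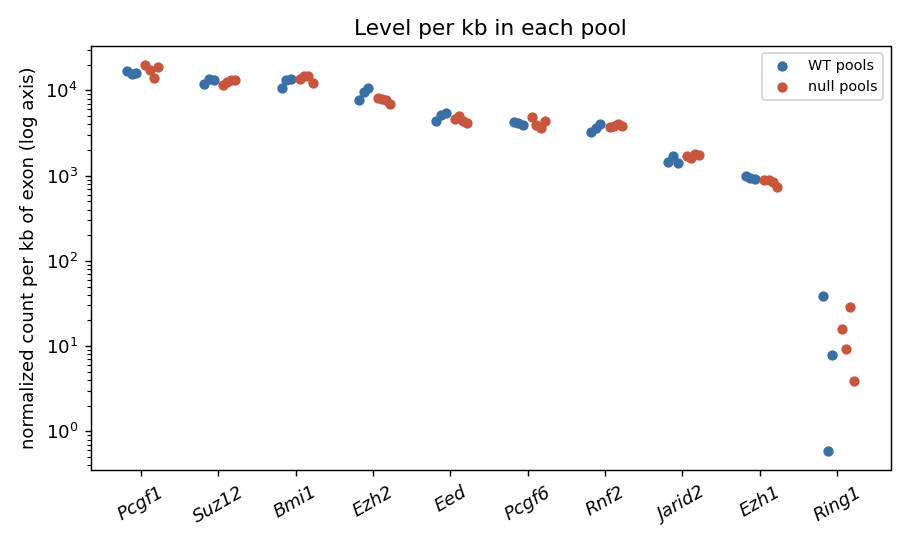
Normalized count per kb of exon on a log axis for the 10 Polycomb core genes, ordered by the WT mean, with a point for each WT pool (blue) and each null pool (red). Pcgf1 is highest at 16105 per kb in WT pools on average, and Ring1 is lowest at 15.8.

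Loss of Nlrp2 was compared with WT by limma on log2(normalized count + 1) over 15071 genes, with Benjamini-Hochberg adjustment over all of them. None of the 10 Polycomb core genes passed at an adjusted p under 0.05, where 0.0664% of all tested genes did. edgeR and DESeq2 on recovered reads also called 0 of the 10, against 0.0464% and 1.29% of genes. At an unadjusted p under 0.05 there was 1 of the 10, Ezh2, against 10.2% of all tested genes. Fold changes were positive in 6 of the 10 and in 50.7% of all genes, and their median was 0.06 on the log2 scale against 0.01 over all genes. With pools set to equal medians, 5 of the 10 were positive and the median over all genes was -0.05. In 1 of the 10, Ezh1, all null pools lay below all WT pools, and in 0 were they above. Over all tested genes 9.91% did not overlap, 5.16% lower and 4.74% higher in null pools. These shares are near those of the whole table. For the 9 genes other than Ring1 the standard error of the log2 fold change was 0.0823 to 0.108, so the 95% intervals below bound how large a difference could be.

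**Figure D2:**
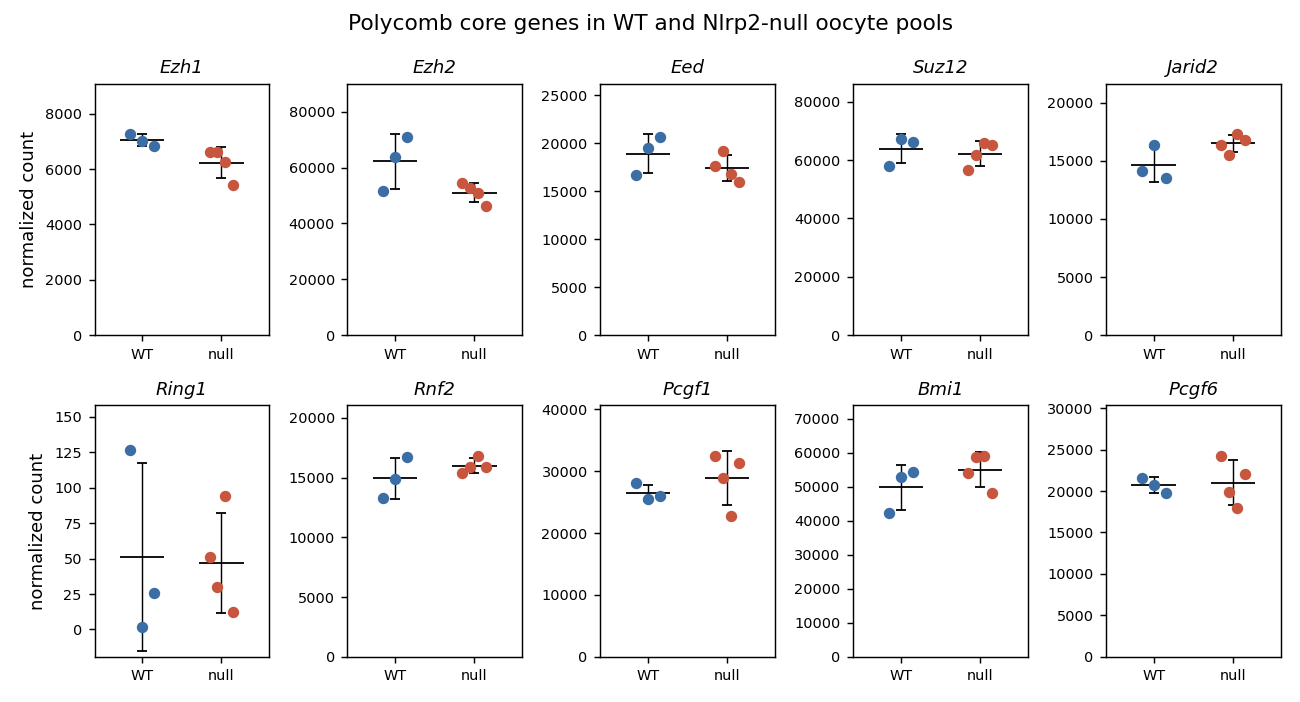
Normalized count of each of the 10 genes in 3 WT pools (blue) and 4 null pools (red), on axes that include 0, with the group mean (horizontal line) and 1 SD (bar). The groups overlap in every panel but that of Ezh1, where the null pools reach 6637 at most and the WT pools are at 6835 or more.

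Of the catalytic subunits of PRC2, which transfer the methyl groups, Ezh2 had the more abundant transcript and Ezh1 the less abundant. Protein was not measured. Ezh2 (chromosome 6, 47530139 to 47595341, minus strand, GRCm38) stood at 51735, 63942 and 71142 normalized counts in WT pools 1 to 3. In null pools 1 to 4 it stood at 54460, 52743, 50795 and 46381. WT 2 and WT 3 were above every null pool, but WT 1 lay within the null values, so the groups overlapped. The log2 fold change was -0.28 (SE 0.0994, limma unadjusted p = 0.0137, adjusted p = 0.366), which is 0.826 times the WT level with a 95% interval of 0.714 to 0.956. Without WT 3 the log2 fold change was -0.17, and without WT 1 it was -0.40 (limma adjusted p = 0.123). The sample codes fall into a lower range (WT 1, WT 2, null 1, null 2) and a higher range (WT 3, null 3, null 4). Within the lower range the log2 difference for Ezh2 was -0.10 and within the higher range, which has 1 WT pool, it was -0.55.

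Ezh2 tended to be lower in pools with higher cumulus cell markers. Its log2 level had a Pearson r of -0.84 (exact permutation p = 0.0165, n = 7) and a Spearman rho of -0.96 (exact permutation p = 0.00278) with the mean log2 level of those markers. Adjusted over the 10 core genes, the p values were 0.0823 and 0.0278. Without WT 2 and null 4, the pools farthest from the median marker level, r was -0.78. Over all 7 pools Eed had a similar relation, with r = -0.85 (exact permutation p = 0.0135, adjusted 0.0823). Its rho was -0.89 (exact permutation p = 0.0123, adjusted 0.0615), and its r without WT 2 and null 4 was -0.83. The remaining 8 genes had r between -0.74 (Ezh1) and 0.37 (Ring1), with adjusted permutation p values of 0.199 or more. Without WT 2 and null 4, r was -0.06 for Ezh1 and 0.875 for Ring1, the largest in size of the 10 genes. With the marker mean as a covariate in limma, the log2 fold change of Ezh2 was -0.14 (adjusted p = 0.665) and that of Eed -0.01. The ranges of sample codes hold 4 and 3 pools, too few to repeat the relation within each. The share of all tested genes with so close a relation was not computed. The permutations ran over both genotypes together, so genotype and marker level cannot be told apart in r.

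**Figure D3:**
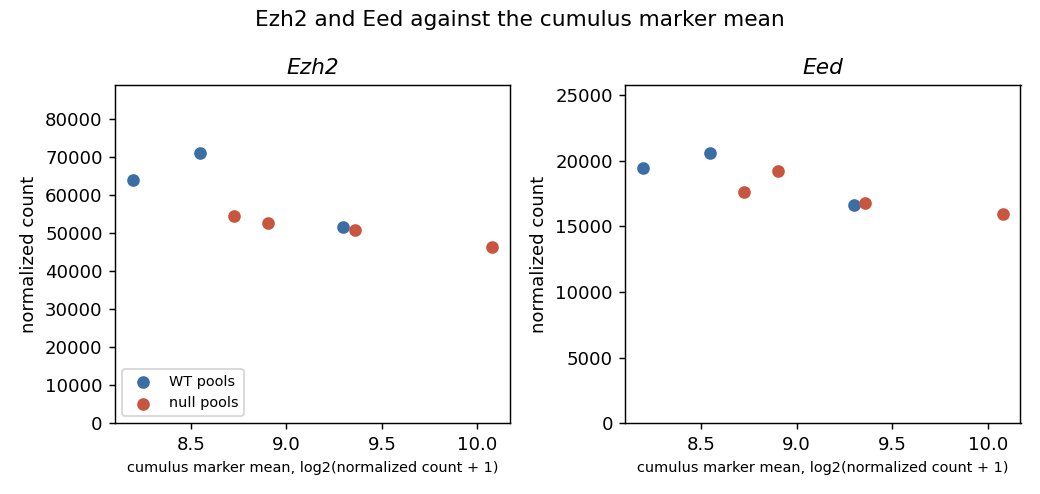
Normalized counts of Ezh2 (left) and Eed (right) against the mean log2 level of cumulus and granulosa markers in each pool, WT in blue and null in red. The pool with the highest marker mean, null 4 at 10.1, has the lowest value of each gene, 46381 and 15976.

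Ezh1 (chromosome 11, 101191115 to 101226463, minus strand) stood at 7275, 7023 and 6835 normalized counts in WT pools and at 6607, 6637, 6249 and 5443 in null pools. All 4 null pools were below all 3 WT pools, which held for 5.16% of tested genes in this direction. The log2 fold change was -0.18 (standard error 0.106, adjusted p = 0.601 by limma), with an interval of 0.755 to 1.03 times the WT level. Per kb, Ezh2 exceeded Ezh1 by 7.92-fold (WT 1) to 11.6-fold (WT 3) in WT pools and by 8.85-fold to 9.49-fold in null pools. Ezh2 thus made up 88.8% to 92.1% of the pair over the 7 pools. The log2 ratio of Ezh2 to Ezh1 was 3.13 ± 0.279 (SD, n = 3) in WT and 3.04 ± 0.0421 (SD, n = 4) in null pools. They differed by -0.10 (two-sided exact permutation p = 0.571 over 35 splits, which allow 0.0286 at best), less than the spread of the WT pools.

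The other PRC2 subunits of the list did not pass either. Eed, the subunit that binds the methyl mark and stimulates the enzyme (chromosome 7, 89954654 to 89980983, minus strand), was at 16650, 19482 and 20620 normalized counts in WT pools. Null pools had 17608, 19198, 16813 and 15976. The groups overlapped, and the log2 fold change was -0.12 (standard error 0.0972, adjusted p = 0.717 by limma). Suz12, the scaffold on which the complex is built (chromosome 11, 79993106 to 80034123, plus strand), was at 58084, 67348 and 66260 in WT pools and at 56486, 61700, 65740 and 65072 in null pools. Its values covered the smallest range of the 10 genes, 1.19-fold between the lowest and highest pool. Its interval of 0.864 to 1.10 times the WT level was also the narrowest. Jarid2, an accessory subunit that tethers PRC2 to chromatin (chromosome 13, 44729474 to 44921643, plus strand), was at 14118, 16377 and 13530 in WT pools and at 16359, 15519, 17310 and 16788 in null pools. WT 2 lay within the null values. The log2 fold change of Jarid2 was 0.17 (standard error 0.0921, adjusted p = 0.559 by limma), the largest positive one among the 9 abundant genes, with an interval of 0.984 to 1.29. Within the lower range of sample codes it was 0.07 and within the higher range 0.33.

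Of the ubiquitin ligase subunits of PRC1, Rnf2 (also called RING1B) was abundant, and Ring1 (RING1A) had 120 reads or fewer in every pool. The 250 bases before the start of each are shown because this pair is the most unequal in the list, together with Bmi1, described below. They were taken from RefSeq promoter records of build GRCm38.p6, which cover 9 of the 10 genes (Pcgf1 is not among them), and capitals mark each CG dinucleotide.
Ring1, chr17:34024681-34024930, minus strand: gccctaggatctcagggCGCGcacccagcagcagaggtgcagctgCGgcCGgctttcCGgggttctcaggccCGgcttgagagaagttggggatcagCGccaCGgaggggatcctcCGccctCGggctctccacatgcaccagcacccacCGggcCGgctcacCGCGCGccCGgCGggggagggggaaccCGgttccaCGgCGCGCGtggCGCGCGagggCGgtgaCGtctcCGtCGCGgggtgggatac
Rnf2, chr1:151500992-151501241, minus strand: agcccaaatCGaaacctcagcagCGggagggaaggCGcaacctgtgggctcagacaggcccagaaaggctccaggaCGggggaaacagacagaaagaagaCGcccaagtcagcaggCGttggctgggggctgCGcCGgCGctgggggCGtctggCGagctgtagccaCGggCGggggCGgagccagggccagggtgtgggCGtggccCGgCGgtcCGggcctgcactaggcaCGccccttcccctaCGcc
Bmi1, chr2:18676768-18677017, plus strand: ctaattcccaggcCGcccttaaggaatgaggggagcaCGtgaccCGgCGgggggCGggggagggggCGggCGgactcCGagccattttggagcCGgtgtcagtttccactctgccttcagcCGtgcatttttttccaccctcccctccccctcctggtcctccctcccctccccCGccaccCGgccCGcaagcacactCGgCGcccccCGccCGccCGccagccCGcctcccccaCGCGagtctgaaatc
The Ring1 window holds 30 CG dinucleotides, that of Rnf2 20 and that of Bmi1 21, against a median of 6 over 32851 windows of 250 bases. The letters GGGCGG, which contain a CG and were searched on both strands with overlapping matches counted, occur 2 times upstream of Ring1, 2 times upstream of Rnf2 and 6 times upstream of Bmi1, and at least once in 32.7% of all windows. The letters CACGTG, the palindromic E-box that also contains a CG, occur once upstream of Bmi1, in none of the other member windows and in 6.02% of all windows. Such matches describe the sequence only.

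Rnf2 (chromosome 1, 151458004 to 151500955, minus strand) stood at 13255, 14889 and 16703 normalized counts in WT pools and at 15356, 15900, 16827 and 15878 in null pools. The groups overlapped, with a log2 fold change of 0.10 (standard error 0.094, adjusted p = 0.753 by limma) and an interval of 0.935 to 1.23 times the WT level. Ring1 (chromosome 17, 34020792 to 34024680, minus strand) stood at 126, 1.90 and 25.5 in WT pools and at 50.9, 29.7, 94.2 and 12.6 in null pools. These values rest on 120, 2 and 31 reads in WT and 47, 29, 96 and 12 in null pools. The exact 95% Poisson interval of the lowest, WT 2, is 0.23 to 6.87 normalized counts, and that of the highest, WT 1, is 105 to 151; the intervals cover counting error only. The pools thus differed beyond counting error within a genotype, by 66.5-fold over all 7 pools, and no direction could be given for Ring1: its log2 fold change was 0.82 in limma (SE 1.15, adjusted p = 0.85), -0.13 in edgeR and -0.62 in limma without WT 2. Per kb, Rnf2 exceeded Ring1 by at least 82.4-fold (WT 1), so Rnf2 made up 98.8% or more of the pair in every pool. The log2 ratio of Rnf2 to Ring1 was 9.44 ± 2.82 (SD, n = 3) in WT and 8.72 ± 1.17 (SD, n = 4) in null pools (two-sided exact permutation p = 0.657). The annotated exons of Ring1 overlap no other gene in GENCODE M21, and no run of 50 bases of its transcript occurs in another gene's transcripts. The rule for reads that match several genes is not stated in the labels.

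PCGF proteins pair with the ligase and set the kind of PRC1 that forms. BMI1 (PCGF4) belongs to the canonical form, which carries CBX proteins that read the PRC2 mark, while PCGF1 and PCGF6 belong to variant forms that contain RYBP or YAF2 and need no such reader. Pcgf1, whose protein acts with KDM2B at CpG islands (chromosome 6, 83077869 to 83080855, plus strand), was at 28033, 25584 and 26053 normalized counts in WT pools. Null pools had 32514, 28849, 22794 and 31340. Null 3 was the lowest of all pools and the other null pools were the highest, so the groups overlapped (log2 fold change 0.11, standard error 0.108, adjusted p = 0.78 by limma). Without null 3 the log2 fold change was 0.22 (limma adjusted p = 0.541). Pcgf6, whose protein acts with MGA and MAX at germline genes (chromosome 19, 47033617 to 47050906, minus strand), was at 21626, 20779 and 19721 in WT pools and at 24260, 19840, 17967 and 21993 in null pools. Its null pools held both the lowest and the highest value of the series, and its log2 fold change was 0.01 (SE 0.1005), with -0.05 where pools were set to equal medians. Bmi1 (chromosome 2, 18677018 to 18686629, plus strand) was at 42282, 53017 and 54314 in WT pools and at 53991, 58832, 59166 and 48280 in null pools. WT 1 was the lowest pool, and without it the log2 fold change of Bmi1 went from 0.15 (standard error 0.099, adjusted p = 0.653 by limma) to 0.03. A model that included the cumulus marker mean gave 0.27 for Bmi1 (adjusted p = 0.312 by limma).

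The same 3 PCGF genes made up nearly the whole family in every pool. Per kb, Pcgf1 took 48.6% ± 3.52 (SD, n = 3) of the summed level of the 6 family members in WT pools and 48.5% ± 4.65 (SD, n = 4) in null pools. Bmi1 took 37.8% ± 4.17 and 38.7% ± 5.34, and Pcgf6 took 12.4% ± 0.865 and 11.6% ± 0.874. Pcgf3 was at 1.02% and 1.12%, while Pcgf2 (also called Mel18, the paralog of Bmi1) and Pcgf5 were each below 0.14% in every pool. These shares depend on the length used. Per kb of the longest coding transcript, Pcgf1, Bmi1 and Pcgf6 averaged 28929, 13876 and 9592 in WT pools, which brings Pcgf6 closer to Bmi1. The genotypes differed by less than the spread between pools for each of the 3 main members. The log2 ratio of Bmi1 to Pcgf6 was 1.26 ± 0.26 in WT and 1.39 ± 0.295 in null pools (two-sided exact permutation p = 0.543). That of Pcgf1 to Pcgf6 was 0.36 ± 0.0526 and 0.45 ± 0.0893 (p = 0.2, same exact permutation test). Adjusted over the 4 ratios tested, each p was 0.657.

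**Figure D4:**
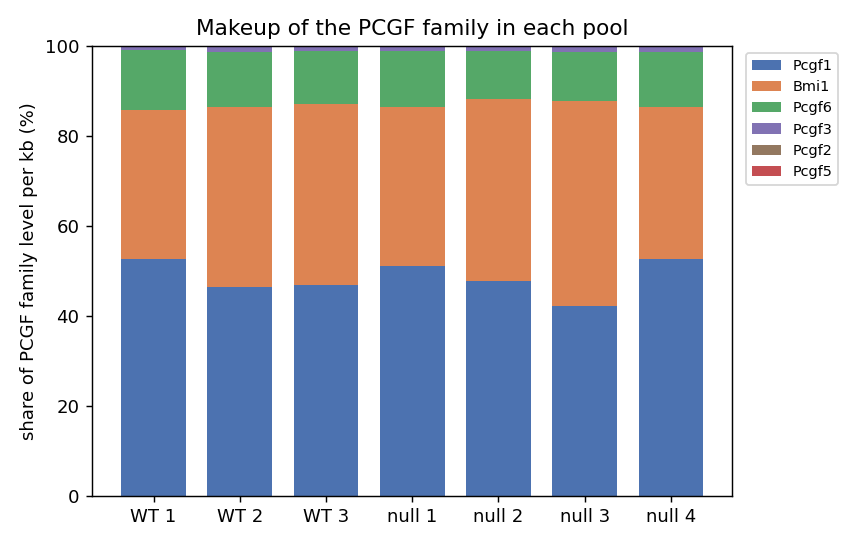
Share of each PCGF gene in the summed level per kb of annotated exon over the 6 family members, for 3 WT and 4 null pools. Pcgf1, Bmi1 and Pcgf6 fill nearly the whole bar in each pool, and null 3 has the lowest share of Pcgf1 (42.2%) and the highest of Bmi1 (45.5%).

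**Figure D5:**
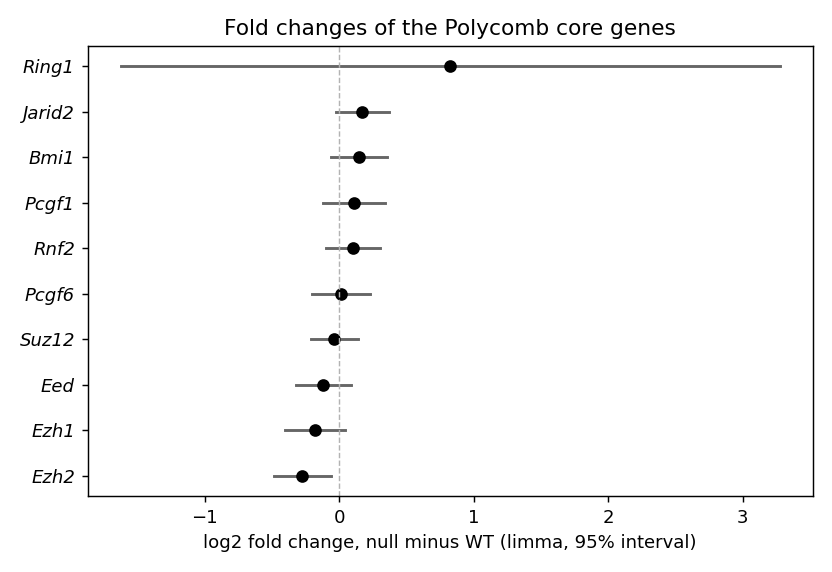
Log2 fold change of each of the 10 genes, null minus WT (points), with its 95% interval from limma (lines). The intervals of 9 genes include 0 and that of Ezh2 runs from -0.49 to -0.06, before adjustment over the 15071 genes tested.

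The annotated exons of Ezh2, Eed, Suz12 and Rnf2 overlap a gene on the opposite strand, by 2.61% (Gm26625), 6.82% (E230029C05Rik), 3.6% (Gm26563) and 3.83% (Trmt1l) of their exon bases. The labels do not state if counting took account of strand, so reads of those stretches cannot be told apart. Among runs of 50 bases, 15.3% of those in Pcgf1 transcripts also occur in Gm8930 and 16.7% of those in Bmi1 transcripts occur in other genes, mainly Gm5946, so the levels of Pcgf1 and Bmi1 are uncertain to that extent. None of the 45 pairs of core genes share such a run, including Ezh1 with Ezh2 and Ring1 with Rnf2.

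Partners of the core genes, erasers of their marks and target genes were taken from 6 lists, of which 86 genes were tested. In limma and edgeR 0 of them passed, against 0.0664% and 0.0464% of all tested genes. At an unadjusted p under 0.05 in limma there were 5 with positive and 5 with negative fold changes, against 5.28% and 4.93% of all genes. DESeq2 called 2, Asxl3 and Hoxc9, against 1.29% of the 14611 genes to which it gave an adjusted p. With pools set to equal medians, the small positive medians given below for canonical partners, variant partners and erasers became -0.06, -0.05 and -0.03.

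Among 8 tested PRC2 subunits outside the 10 core genes of the fixed list, 6 had negative fold changes, with a median of -0.08. Rbbp4, a histone chaperone shared with other complexes, was at 2895, 3785 and 3929 normalized counts in WT pools and 2980, 2861, 2558 and 2576 in null pools, a log2 fold change of -0.36 (standard error 0.139, adjusted p = 0.402 by limma). Its paralog Rbbp7 averaged 114188 normalized counts in WT pools against 112536 in null pools, a log2 fold change of -0.02. Neither Lcorl (log2 fold change -0.55, SE 0.34) nor Lcor (-0.12, SE 0.118) passed. Among 9 tested partners of canonical PRC1 the median was 0.00, with 5 positive. Of the CBX genes, Cbx2 averaged 13963 normalized counts in WT pools, and Cbx7 averaged 255 (not divided by length), while Cbx6 and Cbx8 did not reach a mean of 10. The Polyhomeotic genes Phc3 (log2 fold change -0.21, SE 0.131) and Phc2 (-0.10, SE 0.0811) did not pass.

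Among 23 tested partners of variant PRC1, 13 had positive fold changes and the median was 0.01. Kdm2b, whose protein brings PCGF1 complexes to unmethylated CpG islands, was at 24703, 28973 and 25908 normalized counts in WT pools and 23738, 23689, 21434 and 23692 in null pools. All null pools were below all WT pools, which held for 2 of the 23 partners and for 5.16% of all tested genes. The other partner was Bcorl1, named only for this. The difference in Kdm2b did not pass (log2 fold change -0.20, standard error 0.0852, adjusted p = 0.457 by limma). Max, the DNA-binding partner of MGA in PCGF6 complexes, had a log2 fold change of 0.20 (SE 0.104) with null 2 below every WT pool. Csnk2b, the regulatory subunit of casein kinase 2, had -0.21 (SE 0.116).

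Genes that remove the Polycomb marks held the smallest adjusted p of the 6 lists, that of Asxl3. Of 14 tested, 8 had positive fold changes (median 0.03), 4 had an unadjusted p under 0.05 (10.2% of all tested genes), and 3 did not overlap between genotypes (9.91% of all tested genes). Asxl2 and Asxl3 encode alternative partners of BAP1, the enzyme that takes ubiquitin off histone H2A, and had fold changes of opposite sign. Asxl3 was at 2666, 2520 and 2210 normalized counts in WT pools and 1627, 1856, 1757 and 1510 in null pools. Its log2 fold change was -0.55 (standard error 0.146, adjusted p = 0.212 by limma, DESeq2 adjusted p = 0.0308, edgeR not called). Asxl2 averaged 2336 ± 228 (SD, n = 3) in WT and 3073 ± 212 (SD, n = 4) in null pools, with a log2 fold change of 0.40 (standard error 0.131, adjusted p = 0.317 by limma). Neither gene had a null pool within its WT values. Asxl1, the remaining paralog, averaged 33805 normalized counts in WT and 33319 in null pools, and Bap1 itself 3574 and 3190. Ogt, the glycosyltransferase that binds the BAP1 complex, had a log2 fold change of 0.30 (standard error 0.113, adjusted p = 0.39 by limma). Kdm6a, the H3K27 demethylase UTX, was named after its values were seen, as the remaining gene without overlap: it averaged 58948 in WT and 66282 in null pools, a log2 fold change of 0.17 (standard error 0.076, adjusted p = 0.466 by limma).

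Developmental regulators that Polycomb is known to silence were mostly low, with a median WT level of 19.5 normalized counts against 210 over all genes. The genes imprinted through maternal H3K27 methylation, described below, had a median of 294. Of 36 developmental regulators in the table, 26 had a mean under 100 normalized counts, and 22 reached the mean of 10 needed for testing. Of these, 11 had positive and 11 negative fold changes, and the median was 0.04. That sign was not stable: the median was -0.20 after quantile normalization, -0.02 with equal medians and -0.16 with the cumulus marker covariate. The homeobox gene Hoxd13 (log2 fold change -0.90, SE 0.397), Gata4 (-0.30, SE 0.138) and Tbx3 (-0.48, SE 0.243) had the smallest p values, with limma adjusted p values of 0.463, 0.488 and 0.525. Gata4 is also a granulosa cell marker. Hoxc9, named because DESeq2 called it (adjusted p = 0.0379, limma 0.573), was at 0 in each WT pool and at 7.59, 12.3, 0 and 120 in null pools 1 to 4, so the value of null 4 leads its group. Of 10 tested genes that are imprinted through maternal H3K27 methylation, 7 had fold changes above 0, the median being 0.33 against 0.01 over all genes, and 0 passed in limma, edgeR or DESeq2. Matn1 (log2 fold change 0.94, SE 0.399), Etv6 (0.68, SE 0.302) and Rbms1 (0.39, SE 0.291) had the smallest p values. Each was highest in null 3, at 469, 2479 and 549 normalized counts. The median of the 10 was 0.15 after quantile normalization, 0.01 without null 3 and null 4, and -0.02 once the cumulus marker level was a term of the model.

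By the root mean square difference between centred log2 values over the 7 pools, the genes most like Ezh2 among 12424 others were Lrrcc1 (0.0485), Sep15 (0.0496) and Tube1 (0.0501). Lrrcc1, a centrosomal protein gene, did not pass (log2 fold change -0.29, SE 0.115). Tube1, the epsilon tubulin gene, had -0.22 (SE 0.167), and Sep15, a selenoprotein gene, -0.31 (SE 0.129).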

How the data were processed

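The authors deposited a signal table of normalized counts, reads divided by a size factor for each pool, as its name and the values show. Values were whole multiples of what 1 read was worth in that pool (tolerance 0.01) in 100% of cases, which gave back the reads. Per the submitters' processing notes the tools included TopHat2 2.0.9, HTSeq, STAR 2.5.0a, featureCounts 1.5.0-p1 and DESeq2 1.22.2, and the builds named are mm10 and GRCm38. Neither the step that made the table nor its annotation or use of strand is stated there. A second table, of transcripts, lacks gene names for nearly all rows and was not used here. RNA was amplified, so counting intervals cover counting error only.

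The main test was limma 3.58.1 (R 4.3.3) on log2(normalized count + 1) with trended variance, null minus WT, over 15071 genes with a mean of at least 10. Fold changes of low genes on that scale depend on the value added and are not lower bounds. For Ring1 the log2 fold change was 0.90 with 0.5 added and 0.34 with 10 added, but -0.13 in edgeR. edgeR 4.0.16 and DESeq2 1.42.0 on recovered reads, other scalings, filters, pseudocounts, weights and covariates, and leaving out pools were alternatives. Ratios within a pool between genotypes used two-sided exact permutations of the pools (35 splits). Positions, exon lengths (18743 of 18951 symbols matched) and transcripts came from GENCODE M21 (GRCm38). limma, edgeR and DESeq2 were tested on simulated data. No 2 pools of a group agreed within sampling noise (lowest chi-square 32.7 per degree of freedom).

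The members and lists were chosen with earlier results of these data known. Named were the 10 members and, from each other list, the genes called and the 3 with the smallest p, with exceptions marked where they stand; levels of further genes are given for scale. One gene that this rule names is not reported here.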

Additional observations from a re-analysis of the deposited data

How the results depend on the processing

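Over 22 alternative fits 0 of the 10 core genes was called in any, and the 86 partner and target genes gave 0 calls except with DESeq2 (2). The count over all genes, 10 in limma, was 6 with equal medians, 0 without a variance trend, 68 with pool quality weights, 188 with DESeq2 and 0 without null 3 and null 4; leaving out a pool gave 2 (without null 3) to 16 (without null 1), with 4 without WT 2, 5 without WT 3 and 4 without null 4. With a replicate block it was 1. Pools with the same number did not deviate together (correlations of -0.16, 0.02 and -0.01 for numbers 1 to 3). These correlations cannot show whether pools of the same number were prepared together. That block called 0 of the core genes, and null 4, which has no WT partner, adds nothing to its fold changes.

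Several fold changes changed sign. Suz12 (-0.04) was at 0.00236 without WT 2 and 0.00873 without null 1, with a range from -0.10 over left-out pools. Pcgf6 (0.01) was at -0.0461 with equal medians and -0.0117 with the replicate block, and over left-out pools ran from -0.0589 (without null 1) to 0.0855, with -0.0216 without WT 3 and -0.0117 without null 4. Ring1 (0.82) was at -0.13 in edgeR and in DESeq2 and, over left-out pools, ran from -0.62 (without WT 2) to 2.11. Among the log2 ratios the difference between genotypes for Ezh2 to Ezh1 ran from -0.25 to 0.0284 (without WT 3) when a pool was left out. For Rnf2 to Ring1 it ran from -2.09 to 0.72 (without WT 2), for Bmi1 to Pcgf6 from -0.0124 (without WT 1) to 0.235, and for Pcgf1 to Pcgf6 from 0.07 to 0.13. Within 1 range of sample codes the sign also differed from that over all pools for Eed (0.03, lower range), Rnf2 (-0.03, higher range) and Bmi1 (-0.02, higher range), and for the ratios Ezh2 to Ezh1 (0.00837, lower range) and Bmi1 to Pcgf6 (-0.03, higher range). The cause of these shifts was not tested. Ring1 rests on 2 to 120 reads per pool, and its pools differed beyond counting error.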
